A study of Mus musculus with 4 samples.

Results

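The Ly6 genes described here are 7 members of the Ly6 surface antigen family on mouse chromosome 15 (Ly6c1, Ly6c2, Ly6a, Ly6e, Ly6i, Ly6d and Ly6k), taken by symbol from gene tables that hold 23284 symbols. The list was selected on FPKM values of this same comparison, in which Ly6c1 and Ly6c2 had already been seen to pass the test, so the levels and fold changes of the members are given as a description. RNA had been sequenced from 4 libraries of CD4 T cells, the helper lineage, 2 of a CCR7loCD137hi population and 2 of a CCR7hiCD137lo population. Spleens of inbred BALB/c mice were the source of the CD4 T cells, which were cultured under Th1 conditions (interleukin-2 at 15 ng/ml, interleukin-12 at 10 ng/ml) and then sorted by flow cytometry into the 2 populations. All 4 libraries share the strain and both cytokines, and the labels name no further treatment, no age and no stimulus of the T cell receptor. The culture lasted 4 days by 1 label field and 5 days by another. The series title places the comparison in a study of the fatty acid synthesis enzyme Acc1 and the memory potential of CD4 T cells. Of the sort markers, CCR7 directs T cells into lymph nodes along chemokine gradients, and CD137 (gene Tnfrsf9) gives costimulation to T cells once activated.

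Ly6 proteins are small, disulfide-rich surface proteins, and most are held in the outer leaflet of the membrane by a glycosylphosphatidylinositol (GPI) anchor instead of a membrane-spanning segment. In the mouse several serve as antigens that mark lymphocyte and myeloid subsets: Ly6C, made from Ly6c1 and Ly6c2, on inflammatory monocytes and on effector and memory T cells, and Sca-1, made from Ly6a, on blood stem cells and activated lymphocytes. Sca-1 and Ly6C are known to be inducible by interferons in T cells, and their resting levels differ between mouse strains.

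Levels are FPKM, fragment counts that the authors scaled for transcript length and library depth, so that members can be set beside each other. Depth was estimated from the steps between low values as 11600000 and 6300000 fragments for CCR7loCD137hi replicates 1 and 2 and 20600000 and 13000000 for CCR7hiCD137lo replicates 1 and 2. The sort could be seen in the transcripts: Tnfrsf9 stood at 158.2 and 183.8 FPKM in CCR7loCD137hi cells against 0.961 and 6.25 FPKM in CCR7hiCD137lo cells, and Ccr7 at 39.6 and 38.2 FPKM against 93.4 and 118.4 FPKM. The CD4 T cell label held in both populations, with Cd4 at 95.6 and 175.7 FPKM in CCR7loCD137hi cells and 124.5 and 181.9 FPKM in CCR7hiCD137lo cells. Across 10496 genes the median absolute log2 difference was 0.239 between the CCR7loCD137hi libraries and 0.19 between the CCR7hiCD137lo libraries. Between the populations it was 0.177 for the libraries numbered 1 and 0.185 for those numbered 2, so that both CCR7loCD137hi libraries lay nearer to the CCR7hiCD137lo library of the same number than to each other.

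Ly6c1 and Ly6c2, which together encode the Ly6C antigen, were several-fold higher in CCR7loCD137hi cells, and Ly6a was higher in both CCR7loCD137hi libraries with a wide gap between the CCR7hiCD137lo libraries. Ly6e was abundant in all 4 libraries with overlapping values, Ly6i and Ly6k were near the limit of detection, and Ly6d was at 0 throughout. Of the 7 members, 4 had a mean of at least 1 FPKM and were tested with limma on log2(FPKM + 1), a scale on which fold changes of low genes are understated. With Benjamini-Hochberg adjustment over all 10496 genes tested, limma called 2 of these 4, Ly6c1 and Ly6c2, both higher in CCR7loCD137hi cells, where 0.0572% of all genes tested were called, 0.0476% called higher and 0.00953% called lower. Since the members were chosen with this comparison known, nothing is read from that count. The 2 calls were lost (0 members called) without CCR7loCD137hi replicate 1, without CCR7hiCD137lo replicate 1 and without CCR7hiCD137lo replicate 2, and were kept in number without CCR7loCD137hi replicate 2. In 3 of the 4 tested members the lower CCR7loCD137hi library exceeded the higher CCR7hiCD137lo library, as it did in 16.6% of all genes tested, and the populations were separate in the other direction in 21.5%.

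**Figure D1:**
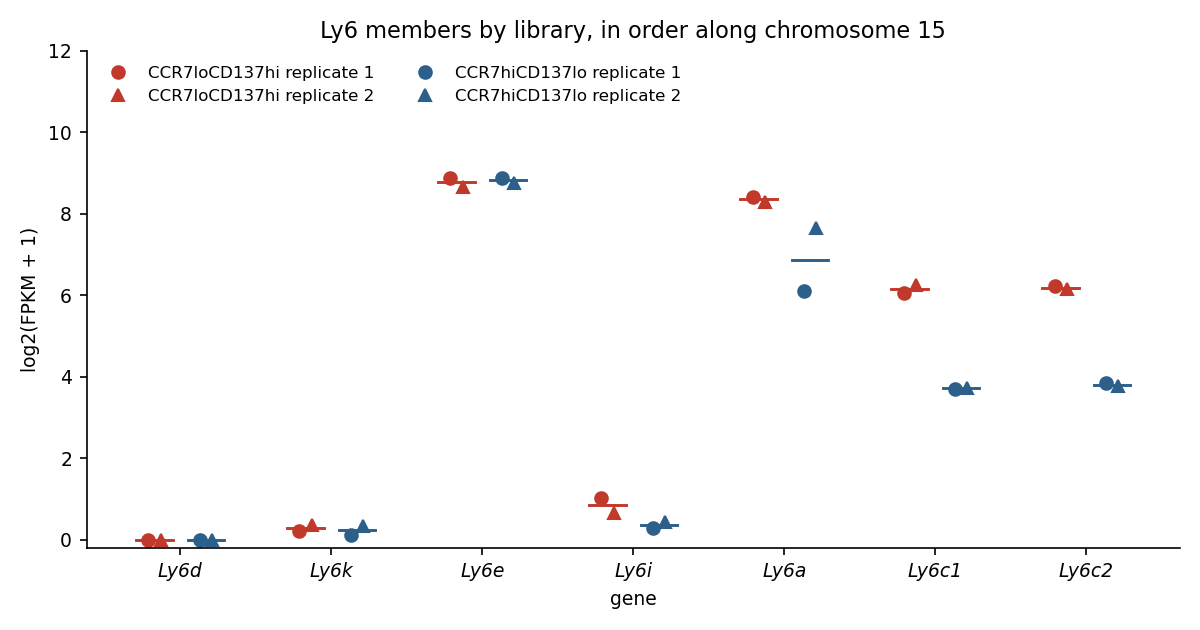
Level of each of the 7 Ly6 members in each library, as log2(FPKM + 1), with the genes in their order along chromosome 15; red symbols are CCR7loCD137hi and blue symbols CCR7hiCD137lo libraries, circles replicate 1 and triangles replicate 2, and a line marks the mean of the 2 libraries. Ly6c1 and Ly6c2 separate by population with little spread, Ly6a has its lowest value in CCR7hiCD137lo replicate 1, and Ly6e overlaps.

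Ly6c1 lies at chr15:75044018-75048837 and Ly6c2 at chr15:75108161-75111949 (build mm10), both protein-coding, of 4 exons and on the minus strand. Their coding sequences in GENCODE M21, a gene annotation on that build, are each 396 nt long and differ at 9 positions, which makes them 97.7% identical. The first 300 nt of both are shown because they carry 7 of the 9 differences and show how little distinguishes the fragments counted for these genes; capitals mark the bases that differ.
Ly6c1: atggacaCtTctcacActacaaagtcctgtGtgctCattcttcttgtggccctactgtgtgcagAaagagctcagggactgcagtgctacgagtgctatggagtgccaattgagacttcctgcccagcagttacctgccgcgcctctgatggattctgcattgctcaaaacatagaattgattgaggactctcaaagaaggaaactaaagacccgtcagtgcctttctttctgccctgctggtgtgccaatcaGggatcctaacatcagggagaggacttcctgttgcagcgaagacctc
Ly6c2: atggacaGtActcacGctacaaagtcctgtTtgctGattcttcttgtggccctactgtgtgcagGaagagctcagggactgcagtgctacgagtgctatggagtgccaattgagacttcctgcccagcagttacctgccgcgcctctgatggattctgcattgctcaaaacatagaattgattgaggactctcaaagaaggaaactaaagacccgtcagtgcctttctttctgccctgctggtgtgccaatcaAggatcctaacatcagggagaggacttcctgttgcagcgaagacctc
Their longest identical stretch ran for 188 nt of coding sequence. Over the whole transcripts, 844 nt for Ly6c1 and 822 nt for Ly6c2, the identity was 95%. Of the 50-nt stretches of the Ly6c1 transcript, 31.7% occurred unchanged in Ly6c2 and 87.7% did so when 2 differences were allowed, and for 100-nt stretches the shares were 15.3% and 76.6%. The sources do not say how fragments that fit both genes were assigned, so the split between Ly6c1 and Ly6c2 is uncertain and their sum is given beside it. The reference sequence is of C57BL/6J mice, and the effect of BALB/c differences on these counts was not tested.

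Ly6c1 stood at 65.7 and 75.6 FPKM in CCR7loCD137hi replicates 1 and 2, against 12.1 and 12.3 FPKM in CCR7hiCD137lo replicates 1 and 2. Ly6c2 stood at 73.4 and 70.1 FPKM in CCR7loCD137hi cells, against 13.3 and 12.7 FPKM in CCR7hiCD137lo cells. For both genes the 2 populations were far apart and the libraries within each were close, and the lowest CCR7loCD137hi value was more than 5 times the highest CCR7hiCD137lo value for Ly6c1 and for Ly6c2. Mean Ly6c1 was 70.7 ± 7.0 FPKM in CCR7loCD137hi cells and 12.2 ± 0.14 FPKM in CCR7hiCD137lo cells (SD, n = 2 each), a ratio of 5.8, and the fitted log2 fold change was 2.44 (SE 0.13). Mean Ly6c2 was 71.7 ± 2.4 FPKM in CCR7loCD137hi cells and 13.0 ± 0.48 FPKM in CCR7hiCD137lo cells (SD, n = 2 each), a ratio of 5.52, and the fitted log2 fold change was 2.38 (SE 0.12). By rank among all genes, Ly6c2 was 1037th in both CCR7loCD137hi libraries, against 4825th and 5189th in the CCR7hiCD137lo libraries. The values rested on an estimated 267 to 515 fragments per gene in CCR7loCD137hi libraries and 99.2 to 166 in CCR7hiCD137lo libraries. In bulk samples such as these, fewer cells that express a gene and less RNA per cell cannot be told apart.

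Taken as 1 quantity, Ly6c1 plus Ly6c2 came to 139.1 and 145.7 FPKM in CCR7loCD137hi libraries, against 25.4 and 24.9 FPKM in CCR7hiCD137lo libraries. The sum depends little on how fragments were divided within the pair. Fragments left out, counted on both genes or exchanged with Ly6a would still change it. Ly6a held 5.03% of the 50-nt stretches of the Ly6c1 transcript. The sum was 5.65 times higher in CCR7loCD137hi cells, 142.4 ± 4.6 FPKM against 25.2 ± 0.34 FPKM (SD, n = 2 each). Ly6c1 made up 47.2% and 51.9% of it in CCR7loCD137hi libraries and 47.5% and 49.2% in CCR7hiCD137lo libraries. The shares overlapped between the populations, and since the assignment of shared fragments is unknown they are those of the deposited values.

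Promoter sequence was at hand for Ly6c1 and Ly6c2 among the 7 members. The 250 bases before the RefSeq start (GRCm38.p6, minus strand, printed 5′ to 3′ toward the start) are shown because the deposited values of both genes differed alike between the populations, within the uncertainty of their split, from chr15:75048838-75049087 for Ly6c1 and chr15:75111972-75112221 for Ly6c2; capitals mark bases that differ between them or have no aligned partner.
Ly6c1: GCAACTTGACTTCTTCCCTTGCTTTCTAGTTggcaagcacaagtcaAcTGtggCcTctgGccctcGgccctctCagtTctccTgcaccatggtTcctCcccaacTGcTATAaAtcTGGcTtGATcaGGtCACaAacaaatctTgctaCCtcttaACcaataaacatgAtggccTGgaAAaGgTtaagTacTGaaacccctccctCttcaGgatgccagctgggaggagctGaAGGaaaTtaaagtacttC
Ly6c2: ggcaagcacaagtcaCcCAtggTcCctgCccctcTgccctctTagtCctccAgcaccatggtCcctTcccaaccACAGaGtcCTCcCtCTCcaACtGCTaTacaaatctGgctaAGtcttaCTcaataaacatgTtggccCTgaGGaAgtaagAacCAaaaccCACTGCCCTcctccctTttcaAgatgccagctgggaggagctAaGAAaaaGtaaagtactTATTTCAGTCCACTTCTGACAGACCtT
Between the end gaps, 164 of 253 alignment columns were identical (64.8%), a lower identity than that of the coding sequences. Each gene has 2 starts in the RefSeq table, and the 250 bases before each start, 4 windows in all, were searched for motifs. On both strands, none of the 4 held TTCNNNGAA, the interferon-gamma activated site, which 7.02% of 32851 mouse promoters of the same length held. Likewise none held AGGTGTGA of T-box factors (1.12% of promoters) or TGANTCA of AP-1 (6.75%). The Runx motif TGTGGT, held by 14% of promoters, occurred in Ly6c2, on the opposite strand of the printed window and 179 nt before its start. TATAAA, held by 12.4% of promoters, occurred in the printed Ly6c1 window 143 nt before the start. These are matches of letters in short windows and no measure of binding.

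Ly6a, the gene of Sca-1, lies at chr15:74994877-74997888 on the minus strand and was among the most abundant transcripts of CCR7loCD137hi cells, ranked 175th and 200th in replicates 1 and 2. It stood at 339.6 and 311.3 FPKM in CCR7loCD137hi cells, against 67.2 and 200.7 FPKM in CCR7hiCD137lo cells. The CCR7loCD137hi libraries were close to each other and both were higher, while the CCR7hiCD137lo libraries were 1.56 apart on the log2 scale, more than the fitted difference between the populations. Mean Ly6a was 325.4 ± 20.0 FPKM in CCR7loCD137hi cells and 134.0 ± 94.4 FPKM in CCR7hiCD137lo cells (SD, n = 2 each), with a fitted log2 fold change of 1.48 (SE 0.53). It was not called by limma. Its size depends on which CCR7hiCD137lo library is used: without replicate 1 the log2 fold change was 0.69, and without CCR7hiCD137lo replicate 2 it was 2.26. The ratio of CCR7loCD137hi to CCR7hiCD137lo was 5.05 for the libraries numbered 1 and 1.55 for those numbered 2.

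The same CCR7hiCD137lo library was also the lower of the pair for Tnfrsf9, one of the sort genes, at 0.961 against 6.25 FPKM, and for Gzmb, the protease granzyme B of cytotoxic granules, at 18.2 against 122.7 FPKM. Ccr7, the other sort gene, was lower there too, at 93.4 against 118.4 FPKM. Ly6c1 and Ly6c2, at 12.1 and 13.3 FPKM there and 12.3 and 12.7 FPKM in the other, showed no such gap. The part of the sort or of other differences between these libraries in the Ly6a gap was not tested. With 10% of the 50-nt stretches of its transcript found in another gene (4.42% in Ly6c1, 3.42% in Ly6i) and 0 of its 100-nt stretches, Ly6a has less sequence in common with its neighbours than the Ly6c pair.

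Ly6e, also known as thymic shared antigen 1, lies at chr15:74955051-74959905 and is the only member on the plus strand. It was the most abundant member in every library, at 471.2 and 405.7 FPKM in CCR7loCD137hi cells, against 472.3 and 431.9 FPKM in CCR7hiCD137lo cells. The values of the populations overlapped. Mean Ly6e was 438.5 ± 46.3 FPKM in CCR7loCD137hi cells and 452.1 ± 28.6 FPKM in CCR7hiCD137lo cells (SD, n = 2 each), a log2 fold change of -0.05 (SE 0.13), smaller than its error. It ranked between 126th and 150th among all genes in the 4 libraries. None of the 50-nt stretches of its transcript (0%) occurred in another gene, and its coding sequence was 46.9% to 52.6% identical to those of the other members.

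Ly6i, a close relative of Ly6a (86.4% of the coding sequence identical), lies at chr15:74979812-74983430 between Ly6e and Ly6a. It stood at 1.02 and 0.586 FPKM in CCR7loCD137hi cells, against 0.215 and 0.342 FPKM in CCR7hiCD137lo cells. Both CCR7loCD137hi values were higher, but they rested on an estimated 8.04 and 2.52 fragments, against 3.02 fragments in each CCR7hiCD137lo library. With a mean under 1 FPKM it was not tested, and 4.97% of its 50-nt stretches occurred in other genes, mostly in Ly6a. A difference could not be resolved at this depth, since 3 fragments on a 1 kb transcript amount to 0.322 and 0.593 FPKM in the CCR7loCD137hi libraries and 0.182 and 0.288 FPKM in the CCR7hiCD137lo libraries, floors for counting error only.

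Ly6k, a gene of the testis whose loss impairs sperm in the mouse, lies at chr15:74796874-74799968. It stood at 0.151 and 0.278 FPKM in CCR7loCD137hi cells and 0.0851 and 0.27 FPKM in CCR7hiCD137lo cells, with overlap, and no library held more than an estimated 2.02 fragments. Of its 50-nt stretches, 29.2% are shared with the antisense gene Gm17189. As the sources do not say whether counting used the strand, reads from that shared part cannot be assigned to either gene. Ly6d, at chr15:74762056-74763567 and known as a marker of early commitment to the B cell lineage, was listed at 0 in all 4 libraries.

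By level per length, the members ranked Ly6e, Ly6a, then Ly6c2 and Ly6c1, Ly6i, Ly6k and Ly6d in both populations. In CCR7loCD137hi libraries Ly6e lay above Ly6a without overlap (lowest Ly6e 405.7, highest Ly6a 339.6 FPKM), and Ly6c1 and Ly6c2 overlapped. In CCR7hiCD137lo libraries Ly6i and Ly6k overlapped, and Ly6c2 (13.3 and 12.7 FPKM) lay narrowly above Ly6c1 (12.1 and 12.3 FPKM). The 7 members summed to 951.1 and 863.5 FPKM in CCR7loCD137hi libraries, against 565.3 and 658.1 FPKM in CCR7hiCD137lo libraries. What differed was also the makeup of the sum. Ly6e held 49.5% and 47% of it in CCR7loCD137hi libraries, against 83.6% and 65.6% in CCR7hiCD137lo libraries. Ly6a held 35.7% and 36% in CCR7loCD137hi libraries, against 11.9% and 30.5% in CCR7hiCD137lo libraries. The Ly6c pair held 14.6% and 16.9% in CCR7loCD137hi libraries, against 4.5% and 3.79% in CCR7hiCD137lo libraries. The Ly6e share was lower and the Ly6a and Ly6c shares higher in both CCR7loCD137hi libraries.

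**Figure D2:**
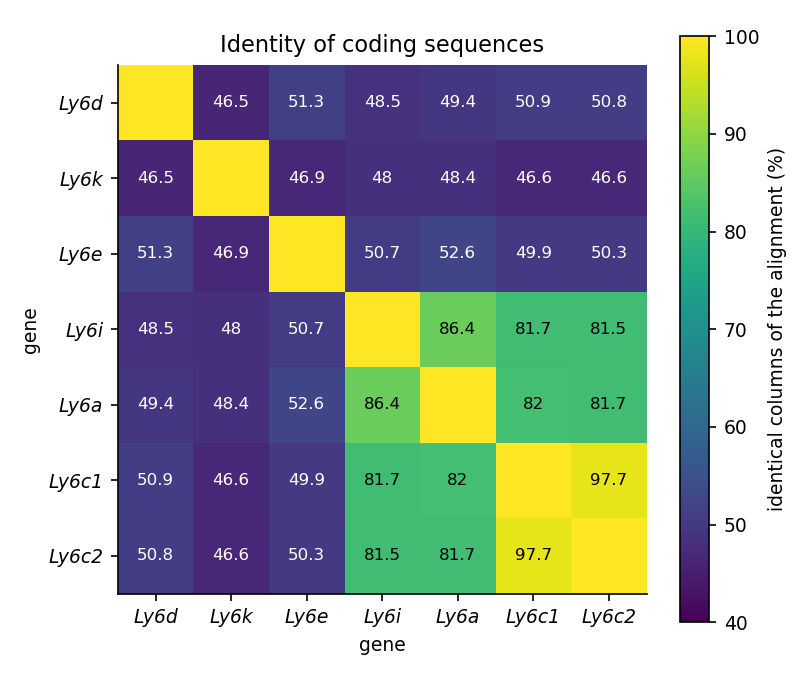
Identity between the coding sequences of the 7 members, in percent of the columns of a global alignment, from dark (40%) to bright (100%), with the genes in their order along chromosome 15 on both axes. Ly6i, Ly6a, Ly6c1 and Ly6c2 form a block of 81.5% or more, and Ly6d, Ly6k and Ly6e stand outside it at no more than 52.6%.

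Coding sequences of Ly6i, Ly6a, Ly6c1 and Ly6c2, which are neighbours on the chromosome, were between 81.5% and 97.7% identical, and those of Ly6d, Ly6k and Ly6e were between 46.5% and 52.6% identical to any other member. The 3 tested members of the closer block, Ly6a, Ly6c1 and Ly6c2, were those whose populations did not overlap, and Ly6e, the tested member outside it, overlapped. This was seen in the values after they were known, over 4 genes, and was not tested.

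Around the members, the tables placed 21 other genes within 500 kb of the outermost ones, and 13 of them were at 0 in all 4 libraries. The 1 neighbour with a mean of at least 1 FPKM, 4930572J05Rik, stood at 18.1 and 17.3 FPKM in CCR7loCD137hi cells, against 19.3 and 20.8 FPKM in CCR7hiCD137lo cells. It was slightly lower in both CCR7loCD137hi libraries, with a log2 fold change of -0.17 (SE 0.13), and limma called 0 neighbours (0 also at an unadjusted p under 0.05). The neighbours summed to 19.2 and 18.5 FPKM in CCR7loCD137hi libraries and 20.9 and 23 FPKM in CCR7hiCD137lo libraries. The related genes Ly6f and Ly6h on the far side of Ly6c2, chosen after their values were seen, were listed at 0 except for Ly6h at 0.11 FPKM in CCR7hiCD137lo replicate 2.

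**Figure D3:**
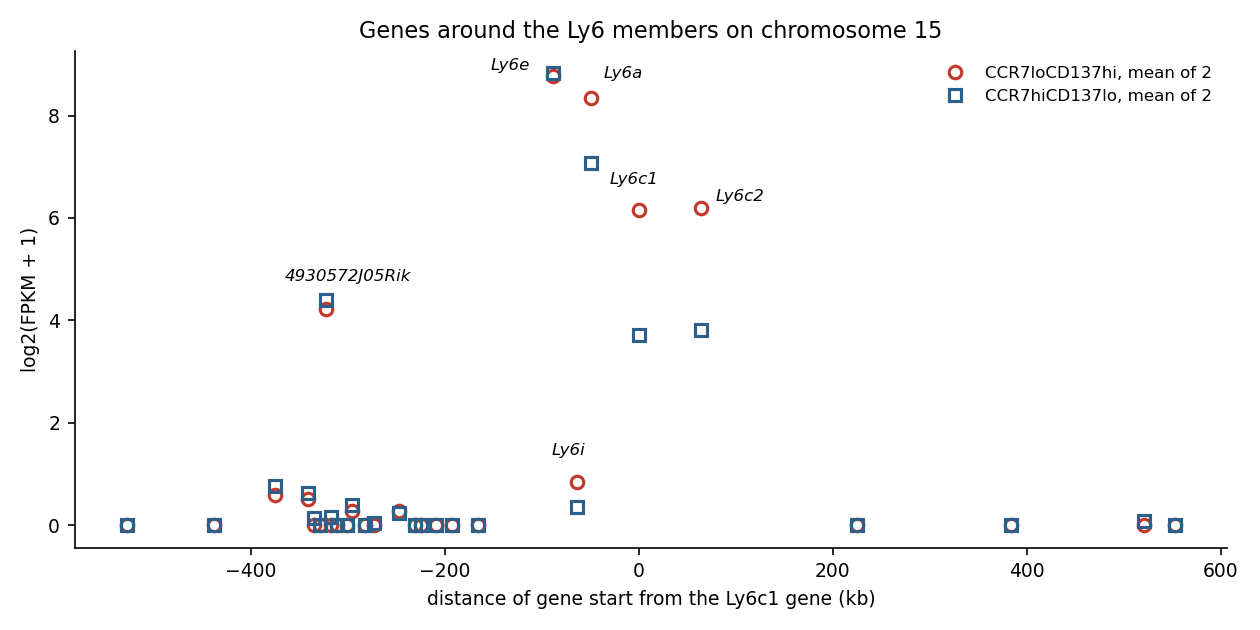
Mean level of the genes that the tables place within 500 kb of the members, as log2(FPKM + 1), against the distance of its start from the Ly6c1 gene in kb; red circles are CCR7loCD137hi and blue squares CCR7hiCD137lo means of 2 libraries. Ly6a, Ly6c1 and Ly6c2 have their red circles well above their blue squares, Ly6e and 4930572J05Rik have them almost together, and most other genes lie at 0.

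Of 44 other genes with a Ly6/uPAR domain, 31 were in the tables, 8 of them among the neighbours just described. Of the 31, 16 were at 0 throughout and 2 reached a mean of 1 FPKM. Those 2, Ly6g5b and Lypd6b, overlapped between the populations, and limma called 0 of them (0 also at an unadjusted p under 0.05). Lypd6b stood at 0.37 and 2.27 FPKM in CCR7loCD137hi cells and 1.02 and 1.73 FPKM in CCR7hiCD137lo cells. Plaur, the urokinase receptor, stood at 2.16 FPKM in CCR7loCD137hi replicate 1 and at 0 in the other 3 libraries.

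Of the genes listed for the GPI anchor, most for building or attaching it and some, such as Gpld1, for cleaving or remodelling it, all 32 were in the tables. Of these, 31 were tested. Limma called 0 (0 also at an unadjusted p under 0.05), 1 was higher and 2 were lower without overlap (16.6% and 21.5% over all genes), and the median log2 fold change was 0.00, beside -0.01 over all genes tested. Dpm3, a subunit of the dolichol-phosphate mannose synthase that supplies mannose for the anchor, stood at 57.2 and 74.6 FPKM in CCR7loCD137hi cells and 50.5 and 59.7 FPKM in CCR7hiCD137lo cells, with overlap. Of 29 other genes in the tables listed as GPI-anchored proteins of T cells, 19 were tested. Limma called 0 (4 higher and 1 lower at an unadjusted p under 0.05, beside 487 and 366 of all 10496 genes). The 1 lower was Treml2, a protein that spans the membrane, so the counts are those of the list and not of anchored proteins alone. Without overlap 8 of the list were higher and 4 lower, beside 16.6% and 21.5% of all genes, with a median log2 fold change of 0.19. Thy1, the classical T cell surface glycoprotein, stood at 518.4 and 558.4 FPKM in CCR7loCD137hi cells, against 485.2 and 455.2 FPKM in CCR7hiCD137lo cells. Cd52, a short glycopeptide of lymphocytes, lay the other way at 463.9 and 481.6 FPKM in CCR7loCD137hi cells, against 556.2 and 550.1 FPKM in CCR7hiCD137lo cells. Both were of about the level of Ly6e, and their log2 fold changes, 0.19 (SE 0.11) for Thy1 and -0.23 (SE 0.10) for Cd52, were far smaller than those of Ly6c1 and Ly6c2.

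Since Sca-1 and Ly6C are known as interferon-inducible antigens, genes of interferon signalling and other interferon-induced genes were read in the same fit. Of 20 signalling genes, all tested, limma called 0 (3 higher and 2 lower at an unadjusted p under 0.05, beside 487 and 366 of all 10496 genes). Without overlap 7 were higher and 6 lower, beside 16.6% and 21.5% of all genes, and the median log2 fold change was 0.01. Ifng, the cytokine interferon-gamma itself, stood at 214.8 and 90.8 FPKM in CCR7loCD137hi cells, against 15.3 and 27.8 FPKM in CCR7hiCD137lo cells, without overlap and with a log2 fold change of 2.70 (SE 0.51). Socs1, a feedback inhibitor of the pathway, overlapped at 68.9 and 85.2 FPKM in CCR7loCD137hi cells and 63.3 and 92.2 FPKM in CCR7hiCD137lo cells.

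Of 52 interferon-induced genes outside the Ly6 family, 41 were tested. Without overlap 5 were higher and 26 lower, beside 16.6% and 21.5% of all genes, and the median log2 fold change was -0.29, beside -0.01 over all genes tested. Limma called 1, Ifitm1, a membrane protein that restricts virus entry, which rose to 126.7 and 82.8 FPKM in CCR7loCD137hi cells, against 1.65 and 0.976 FPKM in CCR7hiCD137lo cells. Its log2 fold change was 5.50 (SE 0.28) with an adjusted p of 0.0366 by limma. Psmb8, an immunoproteasome subunit, stood at 496.0 and 452.6 FPKM in CCR7loCD137hi cells, against 531.9 and 520.4 FPKM in CCR7hiCD137lo cells. Igtp, an immunity-related GTPase, stood at 318.5 and 285.7 FPKM in CCR7loCD137hi cells, against 350.7 and 387.5 FPKM in CCR7hiCD137lo cells. Both had small differences, with log2 fold changes of -0.15 (SE 0.11) for Psmb8 and -0.29 (SE 0.13) for Igtp, neither called. Ifitm2 and Ifitm3, chosen after their values were seen, were higher without overlap, at 106.1 and 152.0 FPKM for Ifitm2 in CCR7loCD137hi cells against 42.5 and 63.1 FPKM in CCR7hiCD137lo cells.

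Ly6C is also used as a marker of effector Th1 cells, and of 31 Th1 effector genes 27 were tested. Limma called 0 (14 higher and 1 lower at an unadjusted p under 0.05, beside 487 and 366 of all 10496 genes). Without overlap 17 were higher and 2 lower, beside 16.6% and 21.5% of all genes, and the median log2 fold change was 1.01, beside -0.01 over all genes tested. Gzmb stood at 1486.3 and 1121.6 FPKM in CCR7loCD137hi cells, against 18.2 and 122.7 FPKM in CCR7hiCD137lo cells. Il2rb, the beta chain of the interleukin-2 and interleukin-15 receptors, stood at 511.7 and 484.3 FPKM in CCR7loCD137hi cells, against 331.6 and 381.1 FPKM in CCR7hiCD137lo cells. Both were higher in each CCR7loCD137hi library. Without CCR7loCD137hi replicate 2 limma called 2 genes of this list, and without CCR7hiCD137lo replicate 2 it called 1.

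**Figure D4:**
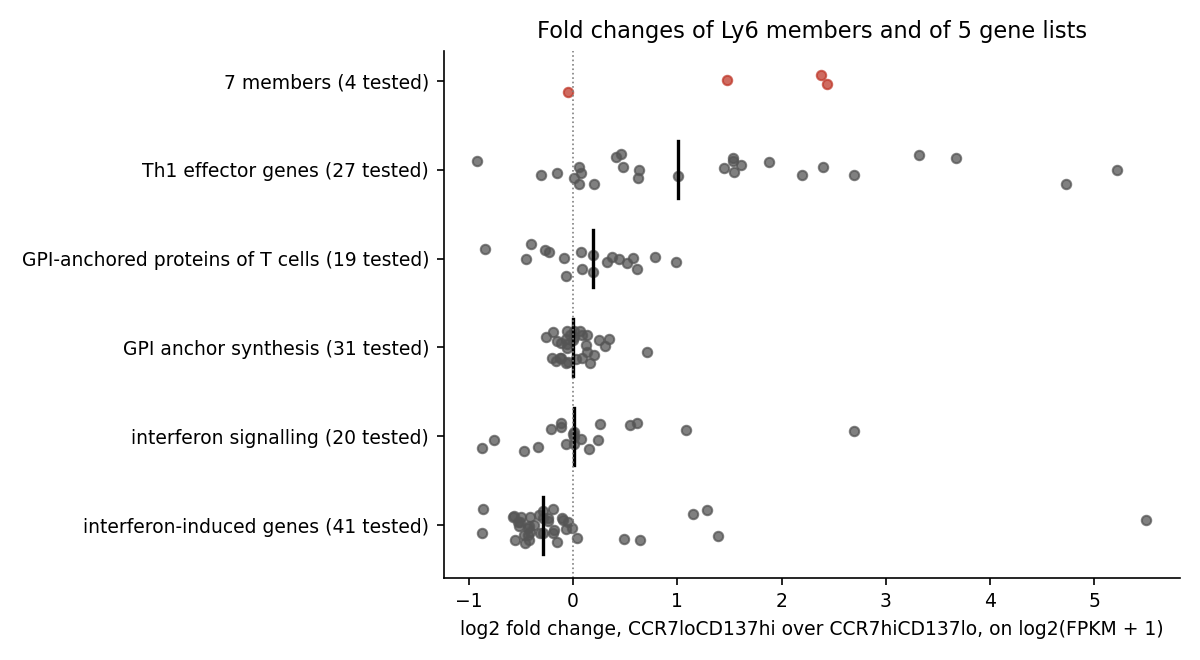
Fitted log2 fold change, CCR7loCD137hi over CCR7hiCD137lo on log2(FPKM + 1), of the 4 tested Ly6 members (red) and of the tested genes of 5 lists (grey), 1 point per gene, with a black line at the median of each list. The Th1 effector genes lie mostly right of 0 (median 1.01), the genes listed under GPI anchor synthesis around it, and the interferon-induced genes mostly left of it (median -0.29).

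The genes whose profile over the 4 libraries was most like that of Ly6c1 and Ly6c2 were sought among 7880 genes with a mean of at least 5 FPKM, by the Euclidean distance between centred log2(FPKM + 1) profiles. Ly6c1 and Ly6c2 were 0.21 apart from each other. The 6 nearest to their mean profile were Fasl (distance 0.20), Fosl2 (0.38), Adam8 (0.53), Nr4a1 (0.63), Cmtm7 (0.72) and P2rx3 (0.74). Fasl, the ligand of the death receptor Fas and a Th1 effector gene, stood at 9.31 and 11.3 FPKM in CCR7loCD137hi cells, against 1.01 and 1.27 FPKM in CCR7hiCD137lo cells. Fosl2, a subunit of the AP-1 transcription factor, stood at 12.3 and 11.5 FPKM in CCR7loCD137hi cells, against 1.68 and 2.27 FPKM in CCR7hiCD137lo cells. Nr4a1, a nuclear receptor induced by T cell receptor signals, stood at 30.6 and 29.7 FPKM in CCR7loCD137hi cells, against 8.83 and 6.92 FPKM in CCR7hiCD137lo cells. Being chosen for their likeness, these genes follow the Ly6c pattern by construction. Ly6a came 87th in this order (distance 1.47) and Ly6e 4068th (2.46). The likeness rests on 4 libraries and is a description of them.

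Ly6C and Sca-1 are also carried by cells other than CD4 T cells, so markers of those cells were read beside the members. Of 14 markers of monocytes and macrophages in the tables, 4 were at 0 throughout, among them Csf1r, the receptor that defines the lineage, and Lyz2, its lysozyme, stood at 0.185 FPKM in CCR7loCD137hi replicate 2 and at 0 elsewhere. The list summed to 46.9 and 45 FPKM in CCR7loCD137hi libraries and 48.7 and 41.6 FPKM in CCR7hiCD137lo libraries, most of it Ctss. Without the filter on low values 5 of the list were higher without overlap (Ccr2, Cd68, Itgam, Emr1 and Fcgr3, the last 3 chosen after their values were seen and each under 0.3 FPKM). The share of all genes that did so without the filter was not taken, so nothing is read from this count. Cd68, a lysosomal protein of macrophages, stood at 2.35 and 3.14 FPKM in CCR7loCD137hi cells, against 1.5 and 0.668 FPKM in CCR7hiCD137lo cells. Ccr2, a chemokine receptor of monocytes that activated T cells also express, was higher without overlap at 8.59 and 6.71 FPKM in CCR7loCD137hi cells, against 0.628 and 0.996 FPKM in CCR7hiCD137lo cells. Of 9 neutrophil markers 7 were at 0 throughout, S100a8 and S100a9 included, and the list summed to 0.487 and 0.192 FPKM in CCR7loCD137hi libraries, against 0.0206 and 0 FPKM in CCR7hiCD137lo libraries. The 7 markers of plasmacytoid dendritic cells, with Siglech at 0 throughout, summed to 77.5 and 79.7 FPKM in CCR7loCD137hi libraries, against 66.6 and 68.3 FPKM in CCR7hiCD137lo libraries, nearly all of it Bst2 and Irf8, which T cells express too. Endothelial markers summed to 11.6 and 11.8 FPKM in CCR7loCD137hi libraries, against 14.4 and 13.8 FPKM in CCR7hiCD137lo libraries, nearly all of it Pecam1.

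Of 7 markers of CD8 T and NK cells 2 were tested, and limma called 0 (1 higher at an unadjusted p under 0.05, beside 487 of all 10496 genes). Without the filter 6 were higher without overlap, again with no share over all genes to set beside that count. The 7 markers of CD8 T and NK cells summed to 43.1 and 34.3 FPKM in CCR7loCD137hi libraries, against 12.1 and 21.8 FPKM in CCR7hiCD137lo libraries, mostly through Eomes, which effector CD4 T cells can express. Cd8a stood at 3.68 and 0.218 FPKM in CCR7loCD137hi replicates 1 and 2, against 0 and 0.0265 FPKM in CCR7hiCD137lo cells. The NK receptor Ncr1, chosen after its values were seen, stood at 1.91 and 0.251 FPKM in CCR7loCD137hi cells and at 0 in both CCR7hiCD137lo libraries. The 7 B and plasma cell markers in the tables summed to 5.19 and 0.916 FPKM in CCR7loCD137hi libraries, against 0.329 and 0.589 FPKM in CCR7hiCD137lo libraries. None of these B cell markers reached the mean of 1 FPKM needed for a test. Without the filter 3 were higher without overlap, likewise with no share over all genes to set beside that count. Within the CCR7loCD137hi libraries the markers did not all run alike. Of the CD8 T and NK list, Cd8a, Cd8b1, Klrb1c, Klra7 and Ncr1 were lower in replicate 2. Eomes (26.5 and 28.5 FPKM in replicates 1 and 2) and Klra1 (0.351 and 0.575 FPKM, chosen after its values were seen) were higher there. The B cell and neutrophil sums were lower in replicate 2, though Sdc1 (0.33 and 0.387 FPKM) was higher. Of the monocyte markers named with values above, Cd68 was higher and Ccr2 lower there. In these libraries 3 fragments on a 1 kb transcript amount to 0.322 and 0.593 FPKM. Directions of markers near or under that level, Klra1 and Sdc1 among them, could not be resolved. Cd8b1 overlapped between the populations, at 8.48 and 3.78 FPKM in CCR7loCD137hi cells and 2.63 and 4.56 FPKM in CCR7hiCD137lo cells. Ly6c1 plus Ly6c2 stood at 139.1 and 145.7 FPKM in CCR7loCD137hi replicates 1 and 2, and the part of other cells in these values was not tested. Without CCR7loCD137hi replicate 1 the log2 fold change of that sum was 2.49, beside 2.45 with all 4 libraries. That value cannot show the part of other cells, since replicate 2 also held their markers, such as Klra7 at 0.786 FPKM (chosen after its values were seen).

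**Figure D5:**
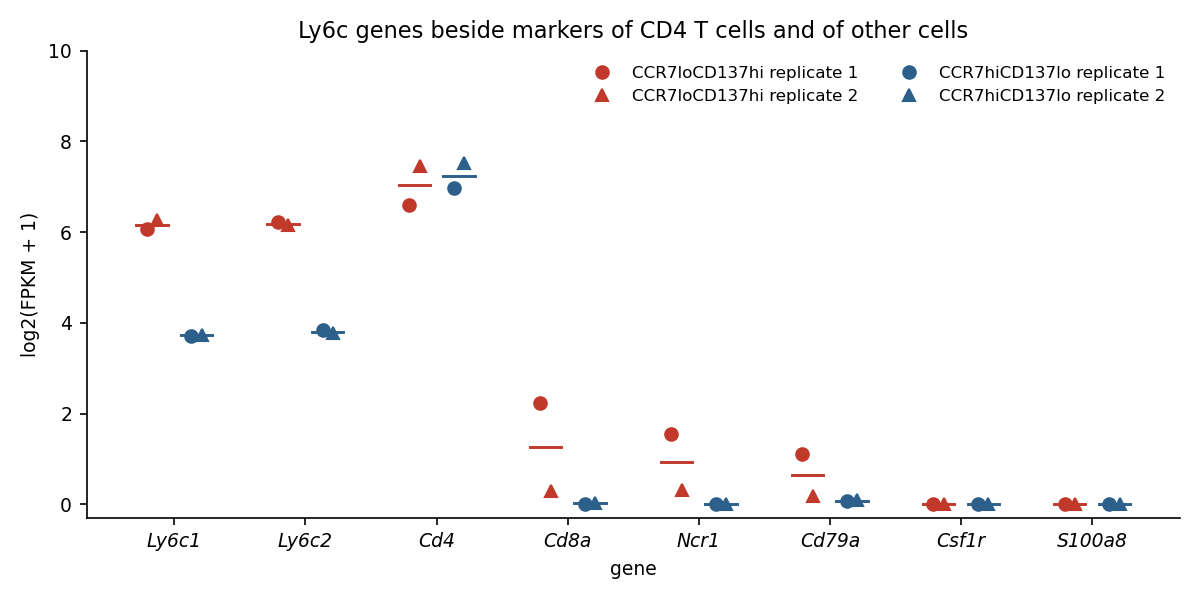
Level in each library, as log2(FPKM + 1), of Ly6c1 and Ly6c2 beside the CD4 T cell marker Cd4 and markers of CD8 T cells (Cd8a), NK cells (Ncr1), B cells (Cd79a), monocytes (Csf1r) and neutrophils (S100a8); colours and symbols stand for populations and replicates, and a line marks the mean of 2. Cd8a, Ncr1 and Cd79a have their highest value in CCR7loCD137hi replicate 1, Cd4 overlaps between the populations, and Csf1r and S100a8 are at 0.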

How the data were processed

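Polyadenylated RNA of 4 libraries was prepared with TRIzol and a stranded TruSeq kit, per the labels' protocols. The authors deposited FPKM values as 1 Cufflinks gene table per library, per the file headers. Build mm10 and the tools Cufflinks 2.0.2, TopHat 1.3.2 and Bowtie 0.12.8 are named, without role or order, in the submitters' processing notes; annotation, strand use and the handling of shared reads were not given. Of 23746 entries for 23284 symbols, the entry with the highest mean stood for a repeated symbol, and every member had 1. Genes with a mean of at least 1 FPKM (10496) entered a limma 3.58.1 fit (R 4.3.3) on log2(FPKM + 1), with a variance trend, two-sided, Benjamini-Hochberg adjustment and a threshold of 0.05, with 2 residual and 2.54 prior degrees of freedom. With 2 against 2 libraries, exact permutation cannot go below a two-sided p of 0.333.

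Relative depth came from the commonest ratio of low values to those of CCR7hiCD137lo replicate 1. As a check, values under 0.1 FPKM in that library were taken, with the limit scaled for depth in the other. Of their ratios 68.4% to 69.7% lay within 0.002 (natural log) of a ratio of whole fragments. Absolute depth came from an assumed fragment length of 200 nt. No label says that libraries come from separate mice or cultures, so p-values measure only how these samples vary, possibly for technical reasons. Identities are from global alignment in Biopython 1.88. The members and all gene lists were chosen with earlier results of these data known. Named genes are the members, the sort genes, up to 4 called genes of each list (with fewer than 2, its 3 most expressed), neighbours of at least 5 FPKM and the 6 most similar genes; of these, some are given by their list alone and some are not reported here. The scripts were tested on simulated data. Tables and plots used pandas 2.3.3, numpy 2.4.6 and matplotlib 3.10.9 under Python 3.11.15.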

Additional observations from a re-analysis of the deposited data

How the results depend on the processing

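The log2 fold changes of Ly6c1 and Ly6c2 kept their direction under every alternative run, from 2.14 to 2.54 for Ly6c1 and from 2.09 to 2.46 for Ly6c2, but their calls did not always hold. The members called, 2 in number, became 0 with no filter on low values, with quantile normalization and with no variance trend, and ran from 0 to 2 when 1 library was left out. Over all genes, 6 were called, against 1 with no filter, 2 with quantile normalization, 3 without short RNA genes, 2 with no variance trend and 12 to 30 with 1 library left out. With the replicate number as a block 42 were called, members still numbering 2; no label says that the numbers pair the libraries (their deviations correlated at 0.214 across genes). Among interferon-induced genes 1 call became 0 with no filter, with quantile normalization and with no variance trend, and 3 under the replicate block. Among Th1 effector genes 0 calls became 3 under the block and ran from 0 to 2 with 1 library left out. The log2 fold change of Ly6c1 plus Ly6c2 was 2.45, against 2.29 with a pseudocount of 5 and 2.40 without short RNA genes, and was not run for the sum under the filters, quantile normalization, the trend or the summed entries. Ly6e, at -0.05, ran from -0.15 to 0.06 with 1 library left out, turning to 0.06 without CCR7loCD137hi replicate 2 and to 0.02 without CCR7hiCD137lo replicate 1. Leaving out 1 library leaves a population with 1, assumed to vary like the other. The cause of these changes was not tested. Depth limits Ly6i, Ly6k and Ly6d, each at or under an estimated 8.04 fragments per library.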
